A study of Gallus gallus with 6 samples.

Results

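Genes of the synaptic vesicle and of the machinery that releases its contents were examined along the embryonic chicken cochlear duct. They were chosen by name, as synaptotagmins, syntaxins and their binding proteins, vesicle and target membrane SNAREs, complexins, synapsins, RAB3 and RIM proteins, synaptogyrins, SV2 glycoproteins and granins, with SYP, NSF, CHGB, UNC13A, UNC13B and BSN where the table held those names. The names matched 60 of the 17684 genes in the authors' table, and 55 of the 60 passed the filter on low values described below. RNA came from Gallus gallus embryos at embryonic day 6.5, with no treatment or mutation. Each duct was cut into distal, middle and proximal pieces of about equal size, the pieces of a region were pooled, and every piece held part of the future hearing epithelium (the basilar papilla) and of the future tegmentum vasculosum, a secretory epithelium. The distal pieces also held the region of the future lagena, a balance organ at the tip of the duct. There were 2 libraries in each of the distal, middle and proximal groups, 1 in a first and 1 in a second library set.

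Transmitter release works through SNARE proteins. VAMP on the vesicle pairs with a syntaxin and a SNAP25 relative on the target membrane, and the pairing pulls both membranes together. Synaptotagmins sense calcium and trigger fusion, complexins clamp and then aid it, priming factors prepare syntaxin, and NSF takes the used complexes apart. Related SNAREs serve every other membrane route of the cell, so the names cover genes of the nerve terminal as well as genes that all cells use. In the cochlea, hair cells release transmitter at ribbon synapses, and neurons of the ganglion receive it.

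The first set held 9262860 (distal), 23537713 (middle) and 14489623 (proximal) alignments, and the second set 56103107, 66072315 and 73918748. Values are RPKM, reads scaled by gene length and by alignments, so that 1 read per kilobase was worth between 0.0135 RPKM in the second-set proximal library and 0.108 RPKM in the first-set distal library. Differences are on the scale log2(RPKM + 1). The pseudocount of 1 makes differences of weakly expressed genes look smaller than they are. Tests covered the 12559 genes with 2 or more libraries at 1 RPKM or above. The sets differed strongly, and the first-set proximal library stood apart from the others. RPKM summed over all genes came to 757443 (distal), 763039 (middle) and 822531 (proximal) in the first set. In the second set it came to 480760, 490156 and 482890. All 12 markers of the cochlear duct epithelium in the table were measured, at a sum of 2512 and 2341 RPKM in the distal, 2063 and 2038 in the middle and 1552 and 1683 in the proximal libraries. Here and below, a pair of values gives the first-set and then the second-set library.

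Of 24 tested neuronal release genes, 14 were lower and 6 higher in the distal than in the proximal library of each set. Against the middle library 16 were lower and 5 higher. Over all genes tested the shares lower and higher were 24.7% and 33.3% against proximal, and 30.6% and 39.9% against middle. The neuronal list was drawn up with earlier results of these data known. Among all 55 tested members, SNAP91, STX1A, SNAP25, SYT7, SYT10, SCG3 and SCG5 had the largest differences of those that were lower distally. SNAP91 (AP180) is a clathrin adaptor that retrieves synaptic vesicle membrane. STX1A and SNAP25 are the syntaxin and the SNAP protein of the nerve terminal. SYT10 and SYT7, which is not on the neuronal list, are calcium sensors, and SCG3 and SCG5 are proteins of dense core granules. The log2 differences of all these genes lay between -0.80 and -1.32 for distal minus proximal and between -0.91 and -1.50 for distal minus middle. STX3, a syntaxin of apical epithelial membranes, and STXBP3, a syntaxin binding protein also found outside neurons, had the opposite order, at 1.08 each for distal minus proximal. No single member passed the test, so these are differences in level that hold in both sets and not calls.

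In limma, which fits a linear model to every gene and moderates its spread, 0 of the 55 members had an adjusted p below 0.05 between distal and proximal, middle and proximal or distal and middle pieces. Over all genes 0% were called in each of these comparisons. At an unadjusted p below 0.05, 3 members were past it between distal and proximal (all genes, 4.04%), 0 between middle and proximal (0.884%) and 5 between distal and middle (1.67%). The same model with the library set as an added term, called the replicate block, also called 0 members. It called 0.526% of all genes between distal and proximal and 0% in the other comparisons. At an unadjusted p below 0.05 the block gave 12 members between distal and proximal (all genes, 14.7%), 1 between middle and proximal (3.85%) and 14 between distal and middle (7.64%). The smallest adjusted p of a member with the block was 0.0698 (SNAP91) between distal and proximal, 0.158 (SNAP91) between distal and middle and 0.888 between middle and proximal. In the F test over all regions 0 members passed without or with the block (all genes, 0% and 0.0717%).

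Of the 55 tested members, 16 were lower and 19 higher in the distal than in the proximal library of both sets, against 24.7% and 33.3% of all genes tested. For distal against middle, 28 were lower and 16 higher in both sets, against 30.6% and 39.9% of all genes. Most of the lower members belonged to a list of neuronal release genes, of which 24 were tested. The 6 that were higher distally than proximally in both sets were CHGB, RIMS1, RIMS4, SV2C, SYT9 and VAMP1. The median log2 difference of the 24 was -0.48 for distal minus proximal, beside 0.10 over all genes, and -0.56 for distal minus middle, beside 0.03. In the second set alone 17 of the 24 were lower in the distal piece than in the proximal one, and in the first set 15. Of all 12559 genes tested, 6393 were lower in the distal piece in the second set and 5063 in the first. In these bulk samples, fewer cells of a type and less RNA per cell cannot be told apart.

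A list of general trafficking genes, which also held the priming factor UNC13B, had 20 tested members. Here 1 was lower and 8 were higher in the distal piece than in the proximal one in both sets. These are 5.0% and 40.0%, beside 24.7% and 33.3% of all genes tested. The median difference was 0.17, beside 0.10 over all genes. The median of the list was 0.43 in the first set and 0.01 in the second, beside 0.19 and -0.01 over all genes. Between distal and middle pieces 9 were lower and 9 higher in both sets, against 30.6% and 39.9% of all genes. The median was 0.02, beside 0.03 over all genes. Their summed level was 534.7 and 393.5 RPKM in the distal, 518.5 and 379.6 in the middle and 486.0 and 382.4 in the proximal libraries. The 28 neuronal release genes in the table summed to 228.8 and 278.9 RPKM in the distal libraries, 406.0 and 517.2 in the middle and 380.0 and 442.2 in the proximal ones. The distal sum of the neuronal genes was thus below every middle and proximal library, and the trafficking sum differed more between sets than between regions. The sum over all genes was also lower in the second set than in the first in every region.

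**Figure D1:**
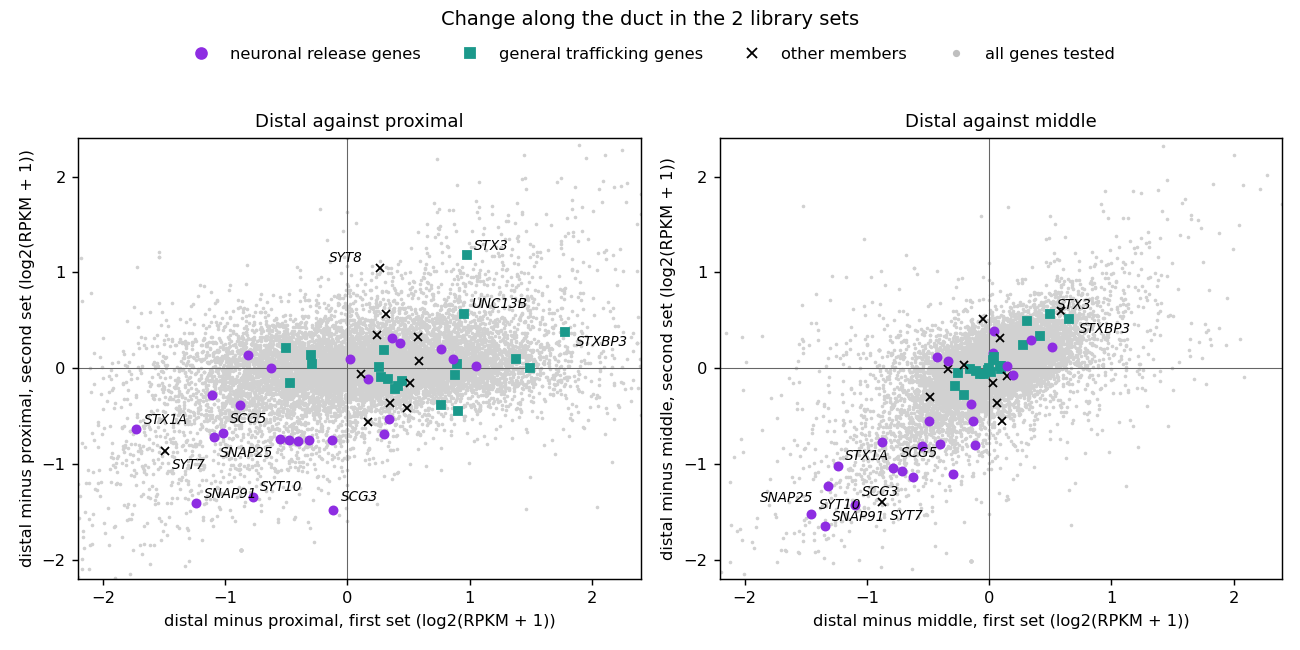
Log2 difference of each gene in the first set (horizontal) and the second set (vertical), on the log2(RPKM + 1) scale, for distal minus proximal (left) and distal minus middle (right). Purple circles are the 24 tested neuronal release genes, green squares the 20 general trafficking genes, crosses the other members and grey points all genes tested, some of which lie outside the axes. SNAP91, SNAP25, SYT7, SYT10 and STX1A lie at the lower left of both panels, and STX3 and STXBP3 at the upper right.

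Among target membrane SNAREs, STX1A and SNAP25 ran in the opposite direction to STX3. STX1A measured 10.8 and 20.1 RPKM in the distal, 26.8 and 41.8 in the middle and 38.0 and 31.9 in the proximal libraries. Both distal libraries lay below all 4 others. Its log2 difference was -1.18 ± 0.44 (SE, model without the block) for distal minus proximal and -1.13 ± 0.44 for distal minus middle. Values after ± here and below are SEs of this model, which include the difference between the sets. SNAP25 measured 32.8 and 19.5 RPKM in the distal, 83.1 and 47.1 in the middle and 71.0 and 32.7 in the proximal libraries. The distal library was the lowest and the middle library the highest in each set, and the groups touched only where the first-set distal value met the second-set proximal one. The difference was -0.90 ± 0.52 for distal minus proximal and -1.27 ± 0.52 for distal minus middle, with a smaller SE of 0.20 in the model with the block (limma, adjusted p with the block 0.122 and 0.180).

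STX3 measured 25.0 and 14.2 RPKM in the distal, 17.4 and 9.32 in the middle and 12.2 and 5.74 in the proximal libraries. In each set the order was distal, middle, proximal, and the distal libraries lay above both proximal ones. The difference was 1.08 ± 0.54 for distal minus proximal (limma, adjusted p = 0.0937 with the block), 0.55 ± 0.54 for middle minus proximal and 0.53 ± 0.54 for distal minus middle. STX3 was the 1 member past an unadjusted p of 0.05 between middle and proximal with the block. SNAP23, a SNAP25 relative also found outside neurons, measured 18.1 and 14.8 RPKM in the distal, 13.3 and 11.5 in the middle and 5.77 and 14.8 in the proximal libraries. Its distal minus proximal difference of 0.75 came from the first set (1.50) and was close to 0 in the second. STX2, an epithelial syntaxin, likewise had 0.89 in the first set and 0.04 in the second. SNAP29 and SNAP47, which serve autophagy and internal routes, stood between 3.86 and 8.81 RPKM in all 6 libraries. STX11, known from immune cells, reached at most 0.104 RPKM and was not tested.

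Vesicle SNAREs were dominated by VAMP3, the widely expressed form also called cellubrevin. It measured 141 and 72.3 RPKM in the distal, 138 and 68.1 in the middle and 172 and 70.2 in the proximal libraries, the highest mean of all members (110 RPKM). The difference between sets was larger than any between regions. VAMP4 of the trans-Golgi network stood between 24.3 and 45.0 RPKM and VAMP7 of late endosomes between 20.4 and 25.7 RPKM. The neuronal forms were scarce. VAMP1 measured 2.74 and 3.68 RPKM in the distal, 3.70 and 3.45 in the middle and 0.801 and 3.60 in the proximal libraries, so that the first-set proximal library alone was low. Its distal minus proximal difference was 0.54 ± 0.55, and -0.14 without that library. VAMP2, the main vesicle SNARE of mammalian brain, measured 1.65 and 0.683 RPKM in the distal, 0.559 and 0.680 in the middle and 0.383 and 0.873 in the proximal libraries. It reached 1 RPKM in 1 library and was not tested.

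Among the factors that bind and prime SNAREs, STXBP3 measured 9.92 and 9.29 RPKM in the distal, 5.96 and 6.19 in the middle and 2.18 and 6.92 in the proximal libraries. Both distal libraries lay above all others. The distal minus proximal difference of 1.08 ± 0.53 was 1.78 in the first set and 0.38 in the second, and that for distal minus middle was 0.58 ± 0.53, at 0.65 and 0.52 in the sets.

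UNC13B, a Munc13 priming factor, measured 6.30 and 14.4 RPKM in the distal, 4.87 and 9.98 in the middle and 2.76 and 9.39 in the proximal libraries. The distal library was the highest in each set, although the groups overlapped across the sets, and the distal minus proximal difference was 0.76 ± 0.67. CPLX2, a complexin of brain synapses, measured 0.192 and 0.700 RPKM in the distal, 0.304 and 1.49 in the middle and 0.749 and 1.83 in the proximal libraries. It ran in the order distal, middle, proximal from low to high in each set. The difference was -0.64 ± 0.49 between distal and proximal pieces. In the first-set distal library its 0.192 RPKM lay close to the 0.108 RPKM that 1 read per kilobase was worth there. CPLX4, a complexin of photoreceptor ribbon synapses in mammals, was listed at 0 in all 6 libraries. NSF stood between 18.9 and 31.1 RPKM, and its differences were 0.11 ± 0.36 for distal minus proximal and -0.23 ± 0.36 for distal minus middle. STXBP4, STXBP5, STXBP5L and STXBP6, which bind syntaxin or compete with vesicle SNAREs, stood between 1.08 and 12.1 RPKM. None of these 4 kept 1 direction in both sets between distal and proximal pieces.

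The synaptotagmins numbered 14, of which 13 were tested. SYT7, a slow, high-affinity calcium sensor, measured 8.44 and 13.5 RPKM in the distal, 16.3 and 37.2 in the middle and 25.5 and 25.4 in the proximal libraries. Both distal libraries lay below the other 4. The difference was -1.18 ± 0.49 for distal minus proximal and -1.13 ± 0.49 for distal minus middle. SYT10, known from growth factor secretion by mouse olfactory bulb neurons, measured 0.430 and 1.32 RPKM in the distal, 2.92 and 5.66 in the middle and 1.44 and 4.88 in the proximal libraries. Here too both distal libraries were the lowest, and in each set the middle library was the highest. The difference was -1.06 ± 0.59 for distal minus proximal and -1.49 ± 0.59 for distal minus middle (limma, adjusted p = 0.139 and 0.189 with the block).

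SYT1, the fast calcium sensor of synaptic vesicles, measured 3.26 and 4.95 RPKM in the distal, 5.58 and 12.0 in the middle and 4.29 and 9.03 in the proximal libraries. The order within each set was distal, proximal, middle from low to high, as for SYT10. The difference was -0.53 ± 0.56 for distal minus proximal and -0.88 ± 0.56 for distal minus middle. SYT11, which does not bind calcium, had the highest mean of the family (35.2 RPKM), and measured 21.2 and 40.4 RPKM in the distal, 30.1 and 50.1 in the middle and 14.8 and 54.3 in the proximal libraries. Its distal minus proximal difference was 0.49 in the first set and -0.42 in the second. SYT4, SYT12 and SYT14 likewise differed in direction between the sets for distal minus proximal.

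SYT6, SYT8, SYT9, SYT15 and SYT17 were higher in the distal than in the proximal library of each set, although none passed the test. SYT8, known from epithelial and secretory cells, measured 3.34 and 3.74 RPKM in the distal, 3.49 and 2.31 in the middle and 2.62 and 1.29 in the proximal libraries. Its distal libraries lay above both proximal ones, and the difference was 0.66 ± 0.45. SYT9, a fast sensor in some mammalian neurons, measured 3.60 and 9.31 RPKM in the distal, 2.62 and 7.40 in the middle and 1.70 and 7.97 in the proximal libraries. The distal library was the highest in each set, with a distal minus proximal difference of 0.48 ± 0.76, which became -0.38 when the first-set proximal library was left out and -0.10 when the second-set distal library was. SYT15 also had its highest value in the distal library of each set, at 2.48 and 2.70 RPKM. SYT6 and SYT17 were higher in the middle than in the proximal library of both sets (0.54 ± 0.44 and 0.47 ± 0.41). SYT16 stood at 6.72 to 15.6 RPKM with differences of at most 0.09 in size. SYT13 reached at most 0.699 RPKM and was not tested.

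**Figure D2:**
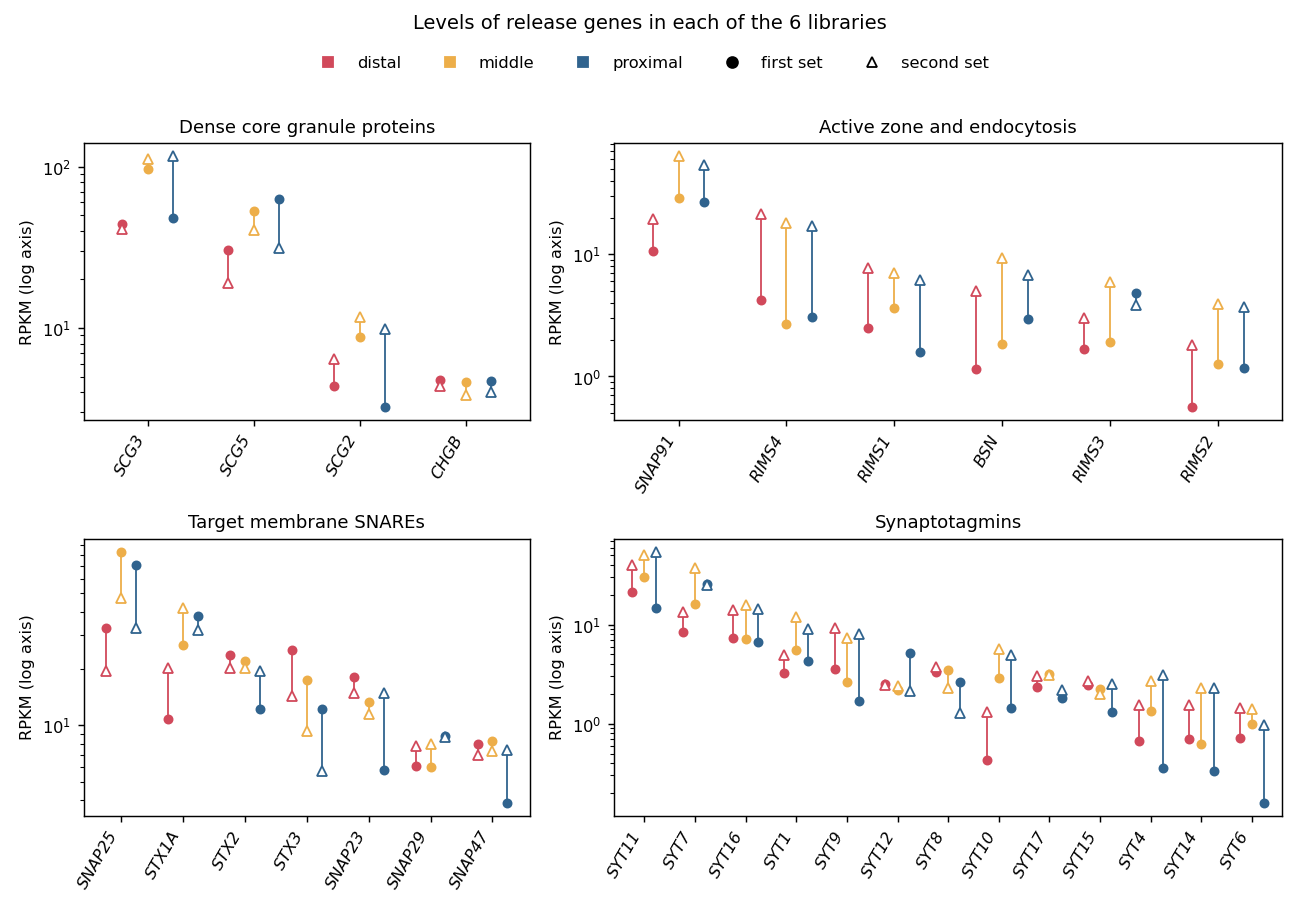
Level of each tested member of 4 role groups in the 6 libraries, in RPKM on a log axis. Colours give the region, circles the first set and triangles the second, and a line joins the libraries of 1 region. For STX1A, SYT7, SYT10 and SNAP91 both distal values lie below the middle and proximal ones. For STX3 both distal values lie above the proximal ones, and for SNAP23 the second-set distal and proximal values nearly coincide. For RIMS4 the sets lie further apart than the regions.

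Of 8 listed proteins of the vesicle membrane 3 were in the authors' table, as were 3 of 7 listed vesicle-bound RAB3 proteins and synapsins. Those present were low in all pieces, and the levels of the others are not known. SYNGR3, a synaptogyrin, had the highest mean of its group (3.13 RPKM) and measured 2.14 and 4.12 RPKM in the distal, 1.75 and 4.39 in the middle and 1.80 and 4.55 in the proximal libraries. Its regions differed by no more than 0.06 on the log2 scale. SV2B, a vesicle glycoprotein, measured 0.743 and 1.89 RPKM in the distal, 1.14 and 5.20 in the middle and 0.896 and 3.86 in the proximal libraries, the distal library being the lowest in each set. SV2C measured 0.995 and 1.71 RPKM in the distal, 0.944 and 1.07 in the middle and 0.0970 and 1.54 in the proximal libraries. Its distal minus proximal difference of 0.48 ± 0.50 was -0.13 without the first-set proximal library.

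SYN3, the synapsin found early in neuron development, measured 2.26 and 4.51 RPKM in the distal, 4.35 and 10.6 in the middle and 3.32 and 8.35 in the proximal libraries. The order in each set was again distal, proximal, middle from low to high, with differences of -0.58 ± 0.62 for distal minus proximal and -0.89 ± 0.62 for distal minus middle. The entry named SYN1, a name that matched no RefSeq symbol or synonym, reached at most 0.732 RPKM and was not tested. RAB3B, a small GTPase of secretory vesicles, measured 3.40 and 2.59 RPKM in the distal, 1.92 and 1.37 in the middle and 2.53 and 1.43 in the proximal libraries. Both distal libraries lay above all others, with a distal minus middle difference of 0.60 ± 0.43 and a distal minus proximal difference of 0.44 ± 0.43.

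In the group of active zone and endocytosis genes, SNAP91 stood out. It measured 10.8 and 19.7 RPKM in the distal, 28.9 and 64.0 in the middle and 26.7 and 53.9 in the proximal libraries. Within each set the distal value was less than the other values, and the distal libraries did not overlap with either other region. The difference was -1.32 ± 0.56 for distal minus proximal and -1.50 ± 0.56 for distal minus middle. With the block the SE was 0.20, and limma gave an adjusted p of 0.0698 and 0.158. With the block and quantile normalization together, an alternative chosen after seeing the data, SNAP91 was the 1 member called between distal and proximal.

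The scaffold genes of the active zone, where vesicles dock, split. BSN (bassoon) measured 1.15 and 5.02 RPKM in the distal, 1.84 and 9.41 in the middle and 2.95 and 6.84 in the proximal libraries. RIMS2 measured 0.557 and 1.81 RPKM in the distal, 1.27 and 3.93 in the middle and 1.17 and 3.72 in the proximal libraries. RIMS3, which encodes a short RIM protein, measured 1.69 and 3.00 RPKM in the distal, 1.91 and 5.97 in the middle and 4.79 and 3.87 in the proximal libraries. All of these had their lowest value in the distal library of each set, with distal minus proximal differences of -0.63 ± 0.80, -0.61 ± 0.61 and -0.69 ± 0.55. That of BSN was 0.11 without the first-set distal library. RIMS1 and RIMS4 were higher in the distal than in the proximal library of both sets, by 0.35 ± 0.70 and 0.34 ± 1.09. With the block, the SE of these differences was 0.27 and 0.22. RIMS4, another short RIM protein, measured 4.25 and 21.3 RPKM in the distal, 2.68 and 18.2 in the middle and 3.07 and 17.0 in the proximal libraries. RIMS1 was also higher in the middle than in the proximal library of both sets, at 0.50 ± 0.70, but -0.24 without the first-set proximal library.

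Dense core granules carry peptides and are sorted with granins. SCG3, which links granin aggregates to the granule membrane, measured 44.4 and 41.0 RPKM in the distal, 95.9 and 112 in the middle and 48.1 and 116 in the proximal libraries. Both distal libraries were the lowest, the first-set proximal library being close to them. The difference was -0.80 ± 0.48 for distal minus proximal, at -0.11 in the first set and -1.48 in the second, and -1.26 ± 0.48 for distal minus middle. SCG5, a chaperone (7B2) of a prohormone convertase, measured 30.6 and 19.0 RPKM in the distal, 53.3 and 40.3 in the middle and 62.8 and 31.1 in the proximal libraries. The distal libraries lay below all others, with -0.85 ± 0.47 for distal minus proximal and -0.91 ± 0.47 for distal minus middle.

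SCG2, secretogranin II, measured 4.36 and 6.47 RPKM in the distal, 8.81 and 11.7 in the middle and 3.22 and 9.83 in the proximal libraries. The middle library was the highest in each set, and the middle minus proximal difference of 0.72 ± 0.56 was the largest of any member whose sign held in both sets for that comparison (1.22 in the first set, 0.23 in the second). CHGB, chromogranin B, measured 4.77 and 4.40 RPKM in the distal, 4.65 and 3.83 in the middle and 4.69 and 4.04 in the proximal libraries. Its values spanned less than those of the other granule genes, and its regions differed by at most 0.09. CHGA, the related chromogranin A, is not among the 60 genes. It measured 74.2 and 78.4 RPKM in the distal, 343 and 346 in the middle and 663 and 416 in the proximal libraries.

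The 7 syntaxins of internal membranes were present in every library at 3.03 to 86.5 RPKM. STX8 of endosomes had the highest mean (50.7 RPKM) and measured 60.8 and 35.1 RPKM in the distal, 57.0 and 34.5 in the middle and 86.5 and 30.2 in the proximal libraries. For distal minus middle, the differences of the 7 genes lay between -0.24 and 0.26. For distal minus proximal, 6 of the 7 had opposite signs in the sets. The exception was STX18 of the endoplasmic reticulum, at 1.38 in the first set and 0.09 in the second. STX12, STX16, STX17 and STX18 were lowest in the first-set proximal library, as were SNAP23, SNAP47, STXBP3 and NSF among members of other groups.

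The middle piece held the highest level of many members. In both sets, 10 of the 55 tested members were highest in the middle library, against 6.6% of all genes tested. These were SNAP25, SNAP91, SYT1, SYT10, SYT17, SYN3, SV2B, RIMS2, SCG2 and VAMP4, of which 8 are neuronal release genes. VAMP4 was among them by a very small margin, 45.01 against 45.00 RPKM in the distal library of the first set. In both sets 12 members were highest in the distal library (all genes, 24.9%) and 2, CPLX2 and SNAP29, in the proximal library (9.76%). Between middle and proximal pieces, 18 members were higher and 6 lower in the middle library of both sets, against 20.8% and 14.6% of all genes. The lower ones with the largest size were CPLX2 (-0.31 ± 0.49), SNAP29 (-0.30 ± 0.42), VAMP3 (-0.18 ± 0.61), RAB3B (-0.15 ± 0.43) and SYNGR3 (-0.04 ± 0.58). With the block, whose SE is smaller, the SE was 0.23 for both CPLX2 and SNAP29, and limma gave an adjusted p of 0.888 for each.

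Both distal libraries lay below both proximal ones for 10 members (all genes, 10.3%) and above both for 9 (13.1%). Against the middle libraries, both distal ones lay below for 11 members (8.92%) and above for 6 (12.1%). The middle libraries lay above both proximal ones for 4 members (5.76%) and below for 1 (4.82%). The members below the middle without overlap were NSF, SCG2, SCG3, SCG5, SNAP25, SNAP91, STX1A, SYT1, SYT7, SYT10 and SYT17.

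A wider list of synapse genes that the names above do not cover had 45 tested members. Of these, 23 were lower and 11 higher in the distal than in the proximal library of both sets, and 29 were lower and 7 higher in the distal than in the middle library. The medians were -0.18 for distal minus proximal and -0.34 for distal minus middle. CHGA was the 1 gene of the list called with the block between distal and proximal (-2.77, limma, adjusted p = 0.0334), beside 0.526% of all genes, and 0 were called without it. With the block and no filter its adjusted p was 0.195 and no gene was called, and over all alternatives it ranged from 1.01e-09 to 1.0. The vesicle protein gene SYNPR (synaptoporin) measured 6.38 and 7.96 RPKM in the distal, 14.4 and 15.4 in the middle and 21.8 and 21.8 in the proximal libraries. SLC17A6, which encodes the vesicular glutamate transporter VGLUT2, measured 1.30 and 2.35 RPKM in the distal, 3.95 and 8.11 in the middle and 3.83 and 8.80 in the proximal libraries. SLC17A8, the VGLUT3 gene used by hair cells, measured 0.191 and 0.359 RPKM in the distal, 0.0756 and 0.0807 in the middle and 1.49 and 1.23 in the proximal libraries. SLC17A6 was thus low in the distal piece alone, whereas SLC17A8 was low in both the distal and the middle piece. NAPB (beta-SNAP, the NSF adaptor of neurons) and SNCB (beta-synuclein) had distal minus proximal differences of -0.95 ± 0.41 and -1.08 ± 0.48.

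Summed markers of neurons were lowest in the distal library of each set, as were the summed neuronal release genes. The same held for the summed glia and red blood cell markers given below. Of 24 neuron markers 17 were in the table, and they summed to 506.5 and 591.9 RPKM in the distal, 1233 and 1697 in the middle and 1409 and 1389 in the proximal libraries. NEUROG1 was listed at 0 in the first-set proximal library and stood below 1 RPKM elsewhere, and no other neuron marker was at 0. Of 16 tested markers 14 were lower in the distal library than in the proximal library of both sets and 15 lower than in the middle, with medians of -1.20 and -1.50. The median of the neuronal release genes was closer to 0 in both comparisons. These medians are on the log2(RPKM + 1) scale, which shrinks differences of weakly expressed genes. Relative to the neuron marker sum, the summed neuronal release genes came to 45.2% and 47.1% in the distal, 32.9% and 30.5% in the middle and 27.0% and 31.8% in the proximal libraries. SNAP25 alone came to 6.48% and 3.30% in the distal, 6.74% and 2.78% in the middle and 5.03% and 2.36% in the proximal libraries. SNAP91 came to 2.13% and 3.32%, 2.34% and 3.77%, and 1.89% and 3.88% in the same order of regions. On this relative scale the distal value of both genes lay between those of the other regions in the first set. In the second set the distal value was the highest for SNAP25 and the lowest for SNAP91. SYT10 came to 0.0849% and 0.222% in the distal, 0.237% and 0.334% in the middle and 0.102% and 0.351% in the proximal libraries, so its distal value was still the lowest in each set. SYT1 came to 0.645% and 0.836% in the distal, 0.452% and 0.709% in the middle and 0.304% and 0.650% in the proximal libraries. SCG5 came to 6.04% and 3.21% in the distal, 4.32% and 2.37% in the middle and 4.46% and 2.24% in the proximal libraries. Both were thus highest in the distal library of each set on this scale. STX1A, SYT7 and SCG3 changed their order of regions between the sets.

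Hair cell markers followed another order. Of 20 listed, 19 were measured, and they summed to 111.7 and 115.8 RPKM in the distal, 87.2 and 97.6 in the middle and 408.0 and 225.7 in the proximal libraries. CALB2 alone held 171.7 and 59.5 RPKM of the proximal sums. Of 12 tested hair cell markers, 10 were lower and 0 higher in the distal than in the proximal library of both sets. Between distal and middle pieces 5 were lower and 5 higher. ATOH1 measured 40.7 and 31.1 RPKM in the distal, 7.95 and 7.77 in the middle and 44.7 and 18.5 in the proximal libraries. The hair cell sum was low in both the distal and the middle piece, whereas the sum of the neuronal release genes was low in the distal piece alone. CHGB, RIMS4, SV2C and SYT9 were exceptions among the neuronal release genes, with their highest value in the distal library of each set. CHRNA9 and TMIE were at 0 in the first-set distal library, and TMIE also in the second-set distal, the first-set middle and the first-set proximal library. Glia markers (8 of 10 in the table) summed to 277.0 and 339.7 RPKM in the distal, 530.4 and 417.8 in the middle and 587.5 and 510.6 in the proximal libraries. Red blood cell markers (6 of 11) summed to 1589 and 1233, 2237 and 1465, and 5705 and 2775 RPKM in the same order, and none of the glia or red blood cell markers was at 0. Leukocyte markers (7 of 8) summed to 50.4 and 37.2, 36.0 and 29.97, and 45.3 and 32.2 RPKM, and cartilage markers (9 of 12) to 951 and 1274, 695 and 986.5, and 743 and 1112 RPKM. Of 7 tested glia markers, 4 were lower and 0 higher in the distal than in the proximal library of both sets. Against the middle library 4 were lower and 2 higher. All 6 red blood cell markers were lower in the distal library of both sets in both comparisons. The part of all these cell types in the differences above was not tested.

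**Figure D3:**
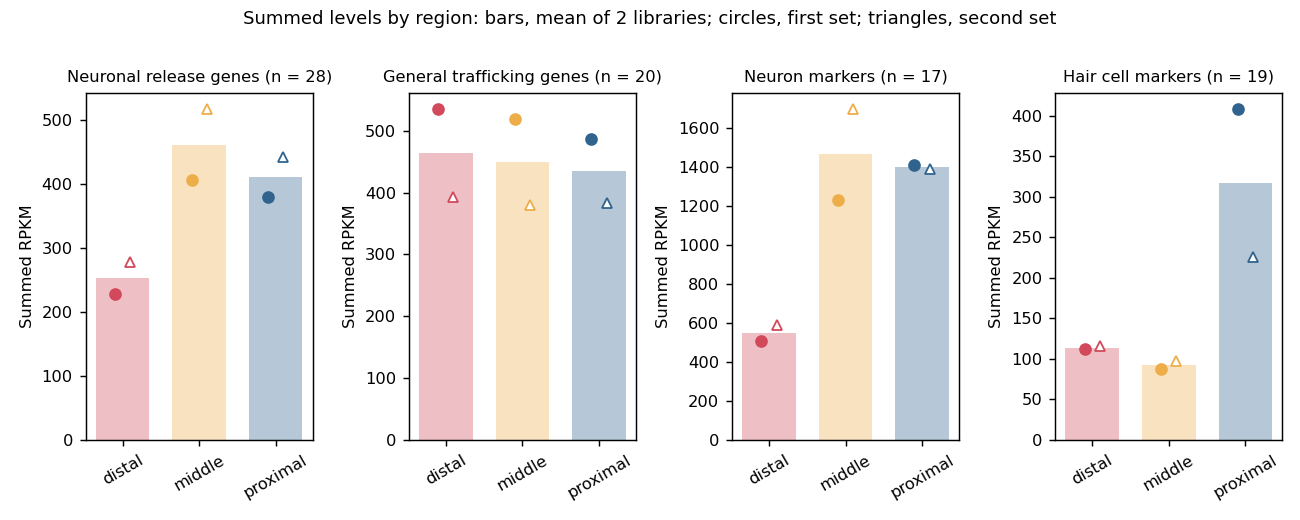
Summed RPKM of neuronal release genes, general trafficking genes, neuron markers and hair cell markers in each region. Bars give the mean of 2 libraries, circles the first set and triangles the second. Neuronal release genes and neuron markers are lowest in the distal libraries, trafficking genes differ by set, and hair cell markers are highest in the proximal libraries.

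Differences between the sets were about as common among the members as among all genes. Of the 55 tested members, 25 were higher in the second set in all regions and 10 lower, against 48.2% and 21.0% of all genes tested. RIMS4 was 5.02-fold higher in the second than in the first set in the distal piece, 6.81-fold in the middle and 5.53-fold in the proximal piece. BSN had ratios of 4.37 in the distal, 5.11 in the middle and 2.32 in the proximal piece. RPKM summed over all genes was lower in the second set in every region. VAMP3 had ratios of 0.512, 0.493 and 0.407, and SNAP25 of 0.595, 0.567 and 0.461. In 1 region the ratios departed from the others. For SV2C the proximal ratio was 15.9 beside 1.71 (distal) and 1.13 (middle), for VAMP1 4.49 beside 1.35 and 0.933, and for SYT4 8.74 beside 2.30 and 2.02. The first-set proximal values of SV2C and SYT4 were low, at 0.0970 and 0.356 RPKM. In that library 1 read per kilobase was worth 0.0690 RPKM.

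**Figure D4:**
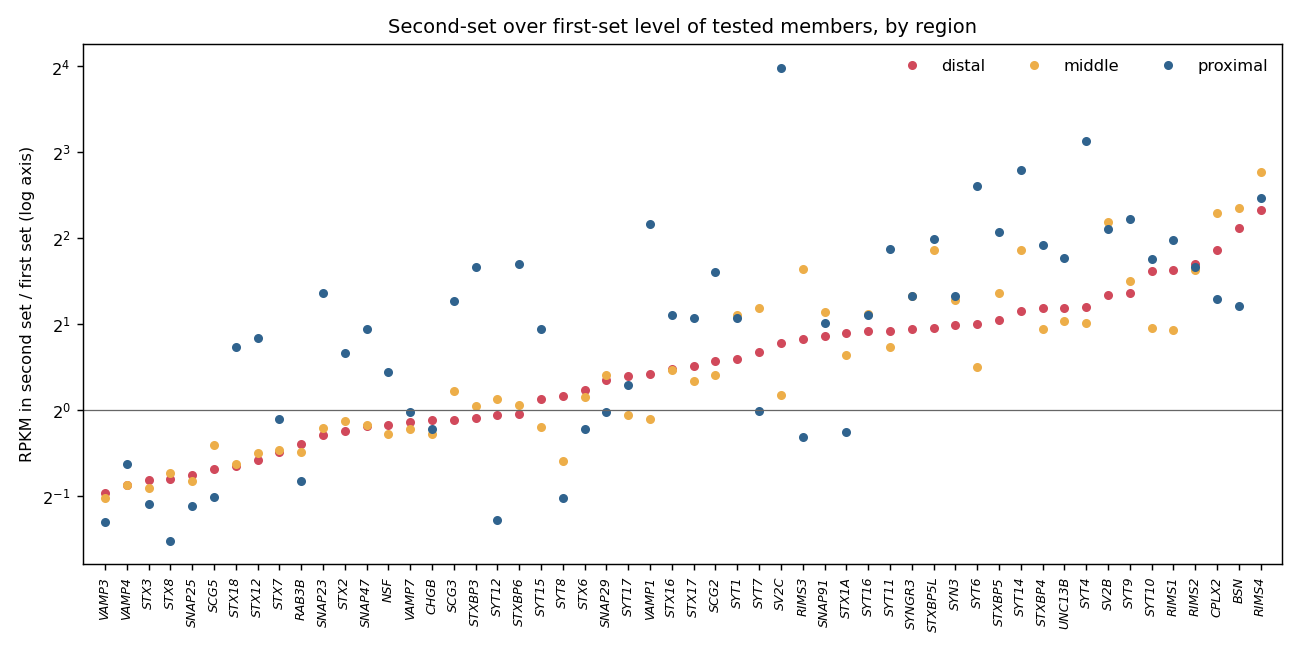
Ratio of the second-set to the first-set RPKM for tested members, on a log axis, with 1 point per region, sorted by the distal ratio. Distal and middle points mostly lie together, from about 0.5 for VAMP3 to 5.02 and 6.81 for RIMS4, and proximal points such as that of SV2C (15.9) lie apart. The first-set proximal value of SV2C was close to that of 1 read per kilobase.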

How the data were processed

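The authors' table holds RPKM values per gene for 6 libraries, deposited with the number of alignments of each library, which stayed out of sums and tests. TopHat 1.4.0 and Partek 6.6 are named in the submitters' processing notes. No source used here gives the build, annotation or strand setting, so gene positions are not printed. Whole reads could not be recovered, so no count model or counting interval was made. Columns name a region and a set, not a sample record, and the kit used for each set is not stated. Of the 60 names, 58 are RefSeq symbols of assembly GRCg7b, 1 (STX6) is a synonym and SYN1 matched neither.

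Values were transformed to log2(RPKM + 1). Genes at 1 RPKM or more in 2 or more libraries entered limma 3.58.1 (R 4.3.3), with region as the factor, trended moderation, two-sided tests and Benjamini-Hochberg adjustment over 12559 genes at a threshold of 0.05. The main model had no set term, and the replicate block added it. The pairing comes from the column names. Differences between sets correlated, over genes, at 0.885 (distal with middle), 0.655 (distal with proximal) and 0.659 (middle with proximal). Such correlations show a set effect that the regions share. They cannot show that the libraries of a set came from the same ducts, since any set-wide difference would give them. The script was tested on simulated data.

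Biological replicates were prepared separately, per the labels' protocols, but how many ducts each pool held is unknown. The members and lists were chosen with earlier results of these data known. Named genes were members called in either model, the 10 per direction with the largest difference of 1 sign in both sets between distal and proximal (5 for the other pairs), the highest of each role and their paralogs, and up to 6 other synapse genes with the smallest p. Alternatives were no filter, a pseudocount of 0.1, quantile normalization, the block and leaving out each library. The results of 1 member named by this rule are not reported here, though counts and sums include it.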

Additional observations from a re-analysis of the deposited data

How the results depend on the processing

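With 2 libraries a region, 1 library can decide a result, and the first set, with the fewest alignments, limits genes of low level most. The replicate block called 66 genes between distal and proximal pieces, 36 with a pseudocount of 0.1, 257 with quantile normalization and 0 with no filter, beside 0 in the main model. Block and quantile normalization together called 1 member, SNAP91, between distal and proximal, 3 genes between middle and proximal, and 65 genes in the F test, beside 9 with the block alone. With the block, no filter or a pseudocount of 0.1 left 0 genes in the F test. The combinations with the block were chosen after seeing the data. Without the block, no filter, a pseudocount of 0.1 and quantile normalization left every count of calls at 0. The median of the members between distal and middle was -0.10 with a pseudocount of 0.1.

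Leaving out 1 library, without or with the block, gave 0 to 6994 genes and 0 to 27 members between distal and proximal, 0 to 5595 and 0 to 24 between middle and proximal, 0 to 1231 and 0 to 13 between distal and middle, and 0 to 6581 and 0 to 28 in the F test. Such block models have 1 residual degree of freedom, and the highest counts against proximal came without the second-set proximal library. Medians of the members ran from -0.35 to 0.39, from -0.16 to 0.67 and from -0.30 to 0.033 for distal minus proximal, middle minus proximal and distal minus middle. With the block, leaving out 1 library gave medians from -0.09 to 0.29 for distal minus proximal. Of 874 values of single genes under alternatives, 785 kept direction and side of the threshold, 70 passed it and 19 turned sign, all 19 on leaving out a library. For distal minus proximal these ranged from -0.14 to 1.22 (VAMP1), -0.38 to 1.35 (SYT9), -0.13 to 1.08 (SV2C) and -1.37 to 0.11 (BSN). For middle minus proximal they ranged from -0.24 to 1.25 (RIMS1), -0.77 to 0.16 (CPLX2), -0.82 to 0.46 (VAMP3), -0.42 to 0.12 (RAB3B) and -0.53 to 0.46 (SYNGR3). For distal minus middle they ranged from -0.14 to 0.94 (UNC13B) and -0.018 to 0.77 (SNAP23). Without the block, leaving out a library sets 1 library of a region against both libraries of another. The difference between the sets then enters the value, as it does in the values without 1 library given above. UNC13B, for instance, was higher in the distal than in the middle library of each set, by 0.31 and 0.49.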
